A study of Mus musculus with 12 samples.

Results

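The response of prostate basal cells to castration was measured on 6 of the 12 Affymetrix mouse arrays of a study of sorted prostate epithelium. All groups came from adult male C57BL/6 mice with no transgene named in the labels. Males underwent orchiectomy at 8 weeks of age or were left intact, and both were killed 4 weeks later, when dissociated prostate was sorted by flow cytometry. Basal cells were collected as lineage-negative, EpCAM-positive cells with high CD49f, the integrin alpha 6 chain, and luminal cells as the same with low CD49f. Intact basal and castrated basal cells gave 3 arrays each, 1 per biological replicate. The 3 intact luminal and 3 castrated luminal arrays served for the shared estimate of spread and for testing where the basal change differed from the luminal change. Across these arrays 14645 genes were tested, out of 18193 with a symbol, and each gene was represented by its brightest probe set.

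Basal cells form the outer layer of the prostatic duct, rest on the basement membrane and carry keratins 5 and 14 and the transcription factor p63. Luminal cells line the duct, make the prostatic secretion under the control of the androgen receptor and are largely lost after castration, whereas most basal cells persist. Testicular androgen reaches basal cells directly and also through neighbouring luminal and stromal cells, which exchange secreted factors with them.

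The authors deposited MAS5 signal, a summary of each probe set on a linear scale, and all 12 arrays had a 2% trimmed mean of 500. The median signal of an array lay at 79.3 to 99.95 on the intact basal arrays and at 57.7 to 73.9 on the castrated basal arrays, without overlap. Fold changes below are differences of log2(signal + 16), castrated minus intact, ± limma's standard error, over 3 arrays against 3, and their p-values were adjusted by Benjamini and Hochberg over all 14645 genes. The error of a gene is shared by the 4 groups, so genes that vary on luminal arrays carry a wide one in basal cells too. Genes steady on luminal arrays carry a narrow one, which can make basal p-values too small. The median standard deviation of a gene (log2) was 0.32 on castrated luminal and 0.58 on intact luminal arrays, and 0.61 in each basal group. The added 16 compresses changes of dim genes. Among the 6 basal arrays, castrated and intact parted along principal component 1, with 32% of the variance, and both arrays of replicate 3 stood apart from the other 4 along the next, with 21.51%. Many of the counts that the text leads with are therefore also given without the replicate 3 pair, and of 139 calls named by rule 56 held without it. The Gapdh control ratio of RNA integrity spanned 4.18 to 7.11 in castrated and 4.70 to 8.70 in intact basal arrays, which overlapped. With 3 arrays a group, precision is limited throughout.

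The basal label was first set against marker genes. The summed signal of 10 basal markers was 104949 to 127796 on intact basal arrays, 136815 to 182988 on castrated basal arrays and 12286 to 14611 on the luminal arrays. The castrated sums all lay above the intact ones. Each of the 10 was above the 40th percentile on every basal array, and limma called 0 of them for castration (1 at an unadjusted p under 0.05). Krt15, a keratin of basal cells, read 31716, 35386 and 35612 on intact and 41506, 38732 and 58849 on castrated arrays. Markers of other cells were also counted, because a sorted fraction can hold some. The 8 leukocyte markers summed to 545 to 935 on intact and 904 to 1318 on castrated basal arrays, and the 8 endothelial markers to 699 to 1187 and 607 to 629.9. Limma called 0 of either set, with 1 and 2 at an unadjusted p under 0.05. Of 8 fibroblast markers 4 fell, yet their sum moved little (24881 to 28689 against 21465 to 26347), since Dcn, the proteoglycan decorin, made up most of it. Dcn read 22817, 20728 and 19696 on intact and 21299, 19296 and 25683 on castrated basal arrays, against 2678, 3314 and 2266 on intact luminal arrays. Since RNA came from pooled sorted cells, fewer cells of a type, less RNA per cell and a change in which cells entered the gate cannot be told apart.

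**Figure D1:**
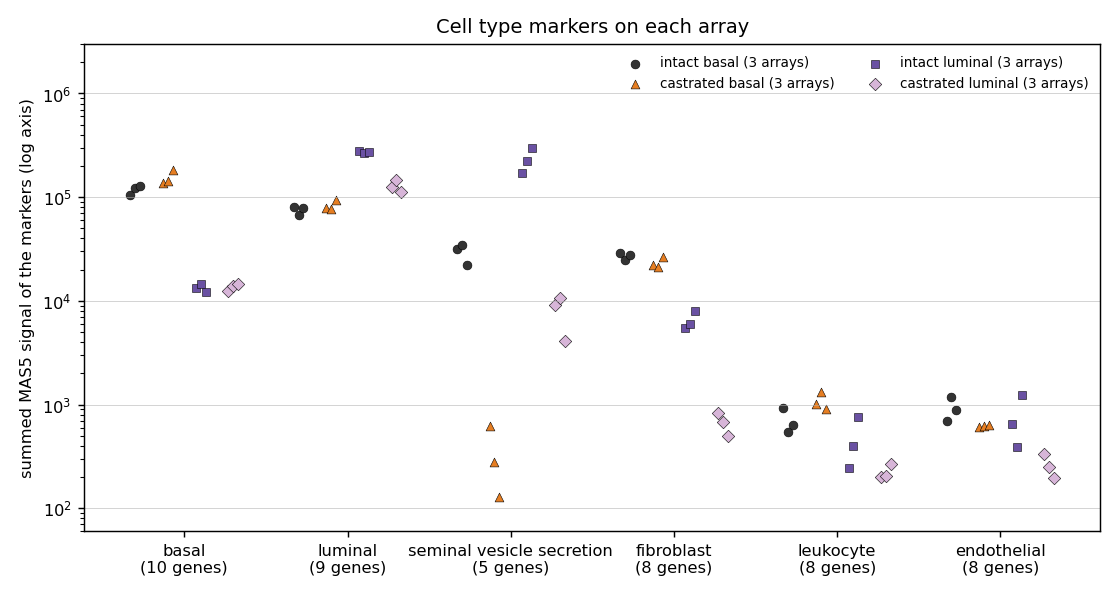
Summed MAS5 signal of marker genes (log axis) on each of the 12 arrays, by cell type, with 3 arrays per group. Basal markers sit at 104949 or more on all basal arrays, and the seminal vesicle secretion markers fall from 22408 to 34473 on intact to 128 to 622 on castrated basal arrays.

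Castration changed 384 genes in basal cells (2.62% of those tested). Of these, 164 were higher (1.12%) and 220 lower (1.5%), and 342 changed by at least 2-fold. At an unadjusted p under 0.05 there were 2601 genes (17.8% of all), the background for such counts in the lists below. On 380 of the 384 the 3 castrated arrays did not overlap the 3 intact arrays, against 2907 of all genes (19.8%). Calls and overlap rest on the same arrays, so this separation is no independent support for the calls. The median change of all genes was -0.11 (log2). Centring each array on its median moved that to 0.23 and turned the split to 511 higher and 115 lower, so the direction of small changes depends on the scaling. The count also moved with the arrays used. It was 175 without castrated basal replicate 2, 220 without castrated basal replicate 3, 227 without intact basal replicate 2, 194 without intact basal replicate 3 and 162 without both basal arrays of replicate 3. It was 184, 212 and 219 without castrated luminal replicates 1, 2 and 3 in turn and 623 without intact luminal replicate 3, since luminal arrays enter the shared error. Without castrated basal replicate 1 the higher calls numbered 96. With the replicate number as a block, since the submitters describe 3 sets of castrated mice with paired intact mice, 318 genes were called. Of the genes named here, Adamts1, Agr2, Col1a1, Cox6b1, Cox6c, Cx3cl1, Ddx54, Derl3, Hk2, Lor, Lyz2, Mphosph10, Ndufa3, Pes1, Plat, Rrs1, Tmem171, Tnfrsf1a and Tpi1 did not pass under that block. A fit on the 6 basal arrays alone called 120 genes (0.819%), 107 of them among the 384. The genes called in the fit of all 12 arrays and in all 27 alternatives numbered 39 (0.266%), of which 9 were higher and 30 lower.

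**Figure D2:**
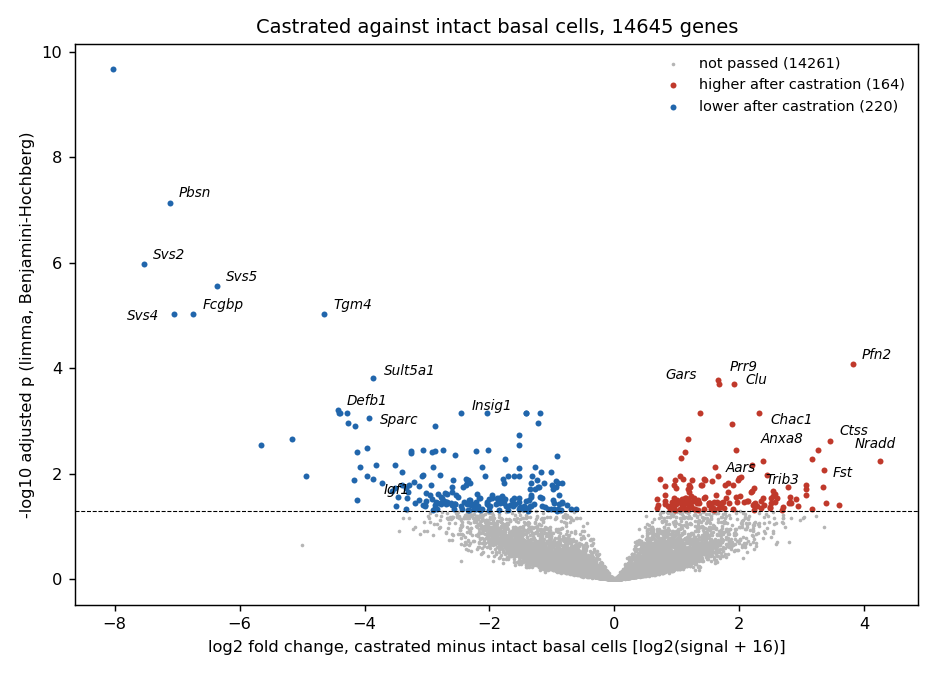
Volcano plot of 14645 genes in castrated against intact basal cells. The horizontal axis is the log2 fold change of signal + 16 and the vertical axis is -log10 of limma's adjusted p, with the dashed line at 0.05. The 164 higher genes are red and the 220 lower genes blue. The secretory genes Pbsn, Svs2, Svs5, Svs4 and Fcgbp lie far to the left, and the largest rise, of Nradd, is 4.26.

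The deepest falls were in genes of the prostatic and seminal vesicle secretions. Of 17 prostatic secretory genes measured, 5 were lower, 1 was higher and 11 did not pass. Their median change was -1.72 against -0.11 for all genes. Of 8 seminal vesicle secretory genes, 4 were lower and 4 did not pass (median -2.03). Svs2, a seminal vesicle secretory protein that is also made in prostate lobes, read 14497, 9468 and 10812 on the intact basal arrays and 224, 21.0 and 10.4 on the castrated arrays (-7.53 ± 0.57, adjusted p = 1.07e-06). The groups were separated by a wide gap, with castrated replicate 1 the highest of the castrated arrays. Pbsn encodes probasin, an androgen-dependent lipocalin of prostatic fluid. Its signal went from 9468, 4705 and 12419 to 134, 19.1 and 23.2 (-7.12 ± 0.44, adjusted p = 7.29e-08), again without overlap and with castrated replicate 1 highest. In Svs5 too castrated replicate 1 was the highest of its group, the signal going from 15926, 14058 and 9747 to 357, 183 and 36.9 (-6.36 ± 0.52, adjusted p = 2.77e-06). Svs4 was more variable among intact mice. It read 1099, 10728 and 1834 on intact arrays, where replicate 2 stood highest, and 1.10, 2.16 and 14.3 on castrated arrays (-7.06 ± 0.64, adjusted p = 9.42e-06). The mucus protein Fcgbp, which binds the Fc part of IgG, read 5458, 1828 and 12678 and then 15.1, 127 and 7.45 (-6.74 ± 0.62, adjusted p = 9.42e-06). Tgm4, the transglutaminase that cross-links semen proteins, read 3196, 1594 and 4745 and then 65.6, 200.2 and 72.4 (-4.65 ± 0.43, adjusted p = 9.42e-06). In both, the 3 castrated arrays lay below all intact arrays. The calls of these 6 genes held in all 27 alternatives. The largest fall of all, at -8.02, belonged to 9530002B09Rik, which has only a provisional name and was singled out after its value was seen. It went from 6765, 3234 and 5966 to 9.45, 0.997 and 1.38 (-8.02 ± 0.33, adjusted p = 2.18e-10).

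The remaining secretory calls were weaker. Msmb, a small secreted protein of the prostate, read 3702, 635 and 113 on intact arrays, a spread of more than 10-fold, and 2.94, 7.36 and 8.32 on castrated arrays (-4.94 ± 0.93, adjusted p = 0.0108). Pate14, a small cysteine-rich secreted protein, fell by 3.21 on the log2 scale, and Agr2, an endoplasmic reticulum protein of mucus-secreting cells, fell by 2.25. Agr2 was not called in 10 of the 12 fits that each omitted 1 array, and Pate14 was called in all 12 but not on the basal arrays alone. The counts of falls without the replicate 3 pair were 4 in the prostatic and 4 in the seminal vesicle list. The arm AGAACA of the androgen response element was searched on both strands of RefSeq promoter windows on GRCm38.p6, from 250 bases before to 50 after the gene start. It was in 2 of the 8 secretory genes that fell and had a window (Pbsn and Svs5) and in 19% of all windows. The full element, both arms with any 3 bases between, was in 0 of the 8 and in 0.00913% of all windows. Svs6 and Svs3a behaved otherwise. Svs6 read 2.50, 197 and 2.30 on intact basal arrays and 3.56, 45.3 and 3.63 on castrated basal arrays, and Svs3a read 10.2, 21.7 and 12.7 and 37.0, 28.6 and 62.3. The groups overlapped for Svs6, the castrated arrays were the higher for Svs3a, and neither gene passed.

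The same transcripts were abundant in luminal cells of intact mice, so their levels there are given beside the basal values. Mean signals on intact luminal arrays were 61442 for Pbsn, 45513 for Svs2, 57014 for Svs4, 120435 for Svs5, 63966 for Fcgbp, 44997 for Tgm4 and 29370.2 for Msmb. The matching intact basal means were 8864, 11592, 4554, 13244, 6655, 3179 and 1483. All 7 were lower in basal than in luminal cells. Svs6 stood at 1745, 7999 and 7649.8 on intact luminal arrays against the low basal values above. The summed signal of 9 luminal markers was 67173 to 79868 on intact and 77078 to 93974 on castrated basal arrays, which overlapped. Of these 9, Krt19 rose, Pbsn, Tgm4, Msmb and Hoxb13 fell and 4 did not pass. What share of the basal secretory signal came from luminal cells or their RNA was not tested. Relative to the luminal change, the basal fall was larger for Pbsn (luminal -3.57 ± 0.44, adjusted p of the difference 0.00906) and Svs2 (luminal -3.32 ± 0.57, 0.0143). It was smaller for Tgm4 (luminal -7.21 ± 0.43, 0.0495) and Pate14 (luminal -7.93 ± 0.64, 0.0143), and for Fcgbp the luminal value was -6.74 ± 0.62 (0.999).

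Further falls were in genes of several families. Defb1, a beta-defensin, is an antimicrobial peptide of epithelia. It read 13891, 10394 and 11281 on intact and 2252, 167 and 376 on castrated basal arrays (-4.43 ± 0.57, adjusted p = 6.17e-04). A related defensin, Defb2, went from 1317, 2324 and 1858 to 128, 2.09 and 1.64 (-5.65 ± 0.88, adjusted p = 0.0028). The groups did not overlap, and castrated replicate 1 was the highest castrated array for both. Sult5a1 belongs to the cytosolic sulfotransferases. It was among the brightest of the falling genes, at 13723, 16638 and 19284 on intact and 1677, 976 and 841 on castrated arrays (-3.86 ± 0.44, adjusted p = 1.54e-04). Aldh1a7, an aldehyde dehydrogenase, went from 2962, 4609 and 4390.5 to 280.4, 170.2 and 7.59 (-5.17 ± 0.79, adjusted p = 0.0022). Its relative Aldh1a1, which oxidises retinal to retinoic acid, went from 7980.5, 9598 and 10392 to 2702, 2519 and 3028 (-1.75 ± 0.30, adjusted p = 0.00537). Both fell without overlap. The secreted glycoprotein Olfml3 fell by 4.41, and Crispld2, a secreted protein with a cysteine-rich domain, fell by 4.17. Hbb-b2, a beta-globin chain of red cells, read 224, 726 and 301 and 5.55, 4.63 and 1.48 (-4.27 ± 0.57, adjusted p = 7.18e-04), and all 3 castrated arrays were dim. Of these, Defb1, Defb2, Sult5a1, Aldh1a7, Aldh1a1, Olfml3 and Hbb-b2 were called in all 27 alternatives, and Crispld2 lost its call in the fit without an intensity trend.

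**Figure D3:**
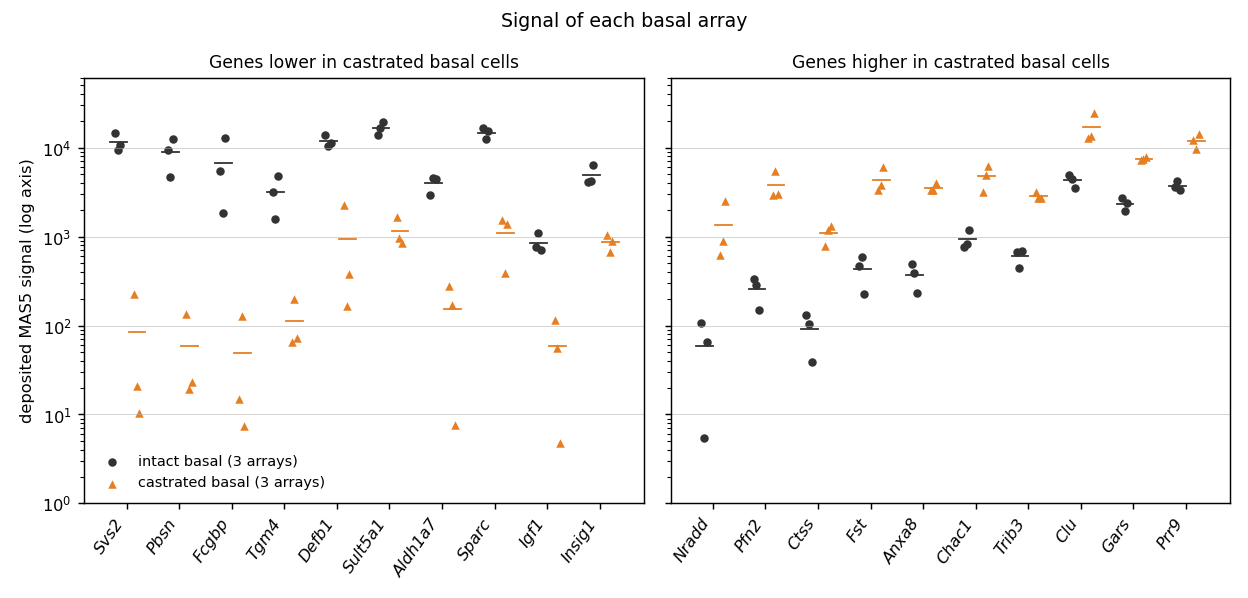
MAS5 signal (log axis) on each of the 3 intact (circles) and 3 castrated (triangles) basal arrays for 10 genes that fell and 10 that rose, with horizontal lines at the group means. No gene shown has overlapping groups. Pbsn drops from 9468, 4705 and 12419 to 134, 19.1 and 23.2, and Gars rises from 2681, 1941 and 2413 to 7299, 7431 and 7786.

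Genes known to be induced through the androgen or the glucocorticoid receptor moved in both directions. Of 15 measured, Zbtb16 and Glul fell, Sgk1 rose and 12 did not pass, and the median was -0.18. Zbtb16, a zinc finger transcription factor, read 2126, 1772 and 2877 on intact and 706, 395 and 440.2 on castrated arrays (-2.12 ± 0.38, adjusted p = 0.00737). Glul, glutamine synthetase, read 21050.0, 20929 and 18087 and 10400.4, 9087 and 7034 (-1.19 ± 0.16, adjusted p = 7.11e-04). Both fell without overlap. Fkbp5, a co-chaperone of steroid receptors, had -1.47 ± 0.42, adjusted p = 0.0674 and did not pass. Sgk1, a serum- and glucocorticoid-induced kinase, rose from 11968, 13693 and 10924 to 21481, 18331 and 24447 (0.81 ± 0.17, adjusted p = 0.0173), against a luminal value of -0.49 ± 0.17 (adjusted p of the difference 0.0109). Its call was lost when either basal array of replicate 3 was omitted and on the basal arrays alone, and without the replicate 3 pair Glul was the 1 call of the 15. The metallothioneins Mt1 and Mt2, which bind zinc and copper, were bright in both basal groups. Mt1 read 21733, 18468 and 21449 on intact and 18592, 16785 and 28021 on castrated basal arrays (0.01 ± 0.19), while its luminal change was -2.30 ± 0.19 (adjusted p of the difference 5.84e-04). Mt2 had -0.05 ± 0.18 in basal and -2.27 ± 0.18 in luminal cells (adjusted p of the difference 5.84e-04). Neither passed in basal cells, and both fell in luminal cells. Hoxb13, a homeobox factor of the prostate, was the lone call among 42 prostate developmental transcription factors, going from 854, 1460.4 and 2943 to 168, 394 and 102 (-2.91 ± 0.48, adjusted p = 0.00395). Of 17 androgen-regulated genes outside secretion, 1 rose, 0 fell and 16 did not pass. That gene, Pmepa1, a membrane adaptor that restrains TGF-beta signalling, went from 8215, 8968 and 5464 to 22718, 20009.7 and 28154 (1.66 ± 0.31, adjusted p = 0.0108), and did not pass without the replicate 3 pair. Among 18 steroid receptors and steroid-converting enzymes limma called 0 (4 at an unadjusted p under 0.05), the closest being Hsd11b1, which regenerates glucocorticoid, at -2.15 ± 0.64, adjusted p = 0.0829.

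The largest rises began from low signals in intact mice, and smaller ones were in bright genes. Nradd, a death-domain membrane protein related to the p75 neurotrophin receptor, read 106, 5.38 and 64.9 on intact and 615, 895 and 2544 on castrated basal arrays (4.26 ± 0.73, adjusted p = 0.0057). Pfn2, the actin-binding profilin 2, read 336, 284 and 150.4 and 2966, 5463 and 2987 (3.82 ± 0.41, adjusted p = 8.46e-05). Both rose without overlap, but a second Pfn2 probe set gave -0.07, and with the mean of its probe sets the Pfn2 call was lost. Anxa8, a calcium-dependent phospholipid-binding annexin of stratified epithelia, read 491, 388 and 229.9 and 3318, 3307 and 4016 (3.26 ± 0.53, adjusted p = 0.00358). Fst, follistatin, which binds and blocks activins, read 473, 594 and 226 and 3311, 3831 and 6000.1 (3.35 ± 0.61, adjusted p = 0.00842). In luminal cells Fst had -0.45 ± 0.61, and the difference passed (adjusted p = 0.0411). Clu, the secreted chaperone clusterin, read 4986, 4461 and 3505 and 12887, 13647 and 24246 (1.92 ± 0.23, adjusted p = 2.00e-04), with castrated replicate 3 the highest. Its luminal value was -0.18 ± 0.23 (adjusted p of the difference 0.00374). Prr9, a proline-rich protein of the epidermal differentiation region, read 3648, 4232 and 3323 and 12053, 9609.6 and 14289 (1.67 ± 0.19, adjusted p = 1.65e-04) and had -0.12 ± 0.19 in luminal cells (adjusted p of the difference 0.00374). Neither overlapped between the groups. Nradd, Anxa8, Clu and Prr9 were called in all 27 alternatives. Cd55, which restrains complement, rose by 3.17, the hair-follicle keratin Krt75 by 3.07, Mrtfa, an actin-sensing coactivator, by 3.34 and Tmem171 by 3.17. Their castrated arrays all lay above the intact ones, as in Mrtfa, which read 59.5, 109 and 3.65 and 311, 609.8 and 930.1. These 4 did not pass on the basal arrays alone. When 1 array was omitted, the call of Krt75 was lost in 2 fits, those lacking castrated basal replicate 3 or intact basal replicate 1. Mrtfa lost its call in 3 of the 12 such fits and Tmem171 in 9. The phosphatase-like Mtmr10 (3.07 ± 0.67), Gprasp2, which sorts receptors for degradation (3.07 ± 0.63), the interferon-induced Ifi202b (2.82 ± 0.67) and the oxysterol-binding protein Osbpl3 (2.81 ± 0.66) were also among the 15 largest rises. Their signals were 223 or less on every intact basal array, and none passed on the basal arrays alone. Omitting 1 array ended the call of Gprasp2 in 1 fit (intact basal replicate 3), of Mtmr10 in 3 and of Ifi202b and Osbpl3 in 7.

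A group of rising genes belonged to amino acid supply. When amino acids run short or unfolded protein accumulates, the kinases of eIF2 alpha raise translation of the transcription factor ATF4, which binds a C/EBP-ATF response element at genes for amino acid synthesis, transport and tRNA charging. The core TGATGNAA of that element was searched on both strands in RefSeq promoter windows of GRCm38.p6, running from 250 bases before to 50 after the gene start. It was chosen after the values were seen. It was present in 3.97% of all 32851 windows. Of the 5 amino acid response genes that rose and had a window, 4 held it (Asns, Chac1, Slc1a4 and Trib3), as did 5 of the 21 that did not pass. Of 4 cytosolic synthetases that rose and had a window, 3 held it (Aars, Gars and Tars), as did 2 of 8 that did not pass. Stretches of 80 bases are printed 5′ to 3′ on the gene's strand for the genes that the values below turn on, with the match in capitals, as read on this strand or as the reverse complement. They lie at chr6:7693210-7693289 (minus strand) for Asns, chr2:119351013-119351092 (plus) for Chac1, chr8:111033694-111033773 (plus) for Aars, chr6:55037921-55038000 (plus) for Gars and chr15:11399659-11399738 (minus) for Tars. A match is a description of the letters and does not show binding.
Asns: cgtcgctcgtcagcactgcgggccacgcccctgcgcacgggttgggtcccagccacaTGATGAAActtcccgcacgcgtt
Chac1: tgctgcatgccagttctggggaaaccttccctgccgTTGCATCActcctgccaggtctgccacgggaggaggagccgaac
Aars: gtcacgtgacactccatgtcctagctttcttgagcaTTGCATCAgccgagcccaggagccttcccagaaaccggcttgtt
Gars: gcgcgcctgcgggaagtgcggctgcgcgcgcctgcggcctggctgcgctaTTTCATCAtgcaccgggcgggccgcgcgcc
Tars: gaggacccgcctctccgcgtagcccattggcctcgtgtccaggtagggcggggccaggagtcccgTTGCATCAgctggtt

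Of 29 measured amino acid response genes and ATF4 targets, 6 rose, 0 fell and 23 did not pass. Their median change was 0.55 against -0.11 for all genes, and 23 of the 29 lay above 0. Chac1, which degrades glutathione, read 773, 832 and 1192 on intact and 3206, 4988 and 6201 on castrated arrays (2.32 ± 0.31, adjusted p = 7.11e-04). Trib3, a pseudokinase that restrains ATF4, read 678, 441 and 697 and 3151, 2728 and 2719 (2.24 ± 0.47, adjusted p = 0.0186). Both rose without overlap. Asns, asparagine synthetase, read 1674, 1163 and 1376 and 2438, 3457 and 3244 (1.11 ± 0.26, adjusted p = 0.0326). Psat1, of serine synthesis, read 3814, 4509 and 3632 and 7028, 9408 and 9208 (1.09 ± 0.21, adjusted p = 0.0127). These groups did not overlap either. The neutral amino acid transporters Slc1a4 (1.35 ± 0.31, adjusted p = 0.0316) and Slc7a5 (1.11 ± 0.27, adjusted p = 0.0358) completed the 6. Other Slc1a4 probe sets gave 0.28 and 0.49 and did not pass (limma on every probe set singly, adjusted p = 0.88 and 0.68). With the mean of its probe sets the Slc1a4 call was lost. Atf4 mRNA itself read 16019, 19513 and 20691 on intact and 18176, 17603 and 19333 on castrated arrays (-0.02 ± 0.14), and the groups overlapped. Ddit3, the stress factor CHOP, had 1.07 ± 0.33, adjusted p = 0.0942 in basal and -1.33 ± 0.33 in luminal cells. It did not pass in basal cells, while the difference did (adjusted p = 0.017). Nupr1, a stress-induced nuclear protein, had 2.97 ± 0.86, adjusted p = 0.074 and did not pass. The luminal median of the list was 0.05. On the basal arrays alone 3 passed (Chac1, Trib3 and Psat1), and 1, Chac1, without the replicate 3 pair and without the intensity trend. Of the 29, 1 rose without castrated basal replicate 2 and 3 without castrated basal replicate 3, and 4 to 8 rose without any other array. Chac1 was called in all 12 of these fits.

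Some of the enzymes that charge transfer RNAs with amino acids in the cytosol rose. This list and that of ribosome assembly were added after the values were seen. Of 19 cytosolic aminoacyl-tRNA synthetases measured, 6 rose, 0 fell and 13 did not pass, and 18 of the 19 changes were above 0, with a median of 0.89. Gars, for glycine, read 2681, 1941 and 2413 on intact and 7299, 7431 and 7786 on castrated arrays (1.68 ± 0.20, adjusted p = 2.00e-04). Aars, for alanine, read 1201, 1476 and 1355 and 3333, 3561 and 5957 (1.62 ± 0.29, adjusted p = 0.00738). In both, every castrated array lay above every intact array, and the intact values were tight. Nars, for asparagine, read 9690.2, 11460.0 and 14828 and 18403, 20218 and 23806 (0.81 ± 0.18, adjusted p = 0.0258), without overlap. Another Nars probe set gave 0.22 and did not pass (limma on every probe set singly, adjusted p = 0.65). With the mean of its probe sets the Nars call was lost. Cars, for cysteine (1.44 ± 0.33), and Tars, for threonine (1.10 ± 0.26), rose, and so did Farsa, a subunit for phenylalanine (2.58 ± 0.61). Farsa and Cars have other probe sets of opposite sign, and with the mean of its probe sets Farsa stood at -0.22. In luminal cells the median of the 19 was -0.28. The difference between basal and luminal cells passed for Gars (adjusted p = 0.0116), Aars (0.0197) and Cars (0.029), and not for Nars (0.0619), Farsa (0.177) or Tars (0.226). Of the 16 mitochondrial synthetases limma called 0 (2 at an unadjusted p under 0.05), at a median of -0.25. Gars and Aars also passed on the basal arrays alone and under all 12 leave-outs, and the other 4 did not pass on the basal arrays alone. Of the 19, 3 rose without the replicate 3 pair and 2 without the intensity trend. With 1 array omitted, 2 rose without castrated basal replicate 3, and 3 without castrated basal replicate 1 or 2 or intact basal replicate 2. Without intact luminal replicate 3, 10 rose, and 4 to 7 without any other.

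Some genes of ribosome assembly rose, in the longest of the lists. Of 108 ribosome biogenesis genes measured, 13 rose (12%), 0 fell and 95 did not pass. Their median change was 0.64, with 96 above 0. On 55 of the 108 the groups did not overlap, against 19.8% of all genes. Rrp15, a factor of the large subunit, read 715, 999.7 and 1143 on intact and 3320.0, 3471 and 3225 on castrated arrays (1.82 ± 0.36, adjusted p = 0.0153). Nol12, a nucleolar RNA-binding protein, read 554, 411 and 623 and 1687, 1758 and 2009.5 (1.77 ± 0.36, adjusted p = 0.0161), and Dcaf13, of the small-subunit processome, read 798, 966 and 1326 and 2477, 2629.6 and 3032 (1.41 ± 0.29, adjusted p = 0.0167). None of the 3 overlapped. Tcof1, treacle, which supports transcription of ribosomal DNA, had 2.12 ± 0.49, adjusted p = 0.0334. Its other probe sets gave 0.44 and 0.28 and did not pass (limma on every probe set singly, adjusted p = 0.74 and 0.84). Bms1 (1.14 ± 0.26), Nop14 (1.26 ± 0.29), Krr1 (1.17 ± 0.27) and Mphosph10 (1.22 ± 0.30), all of the small-subunit processome, rose as well. So did Pes1 (1.55 ± 0.40), Ddx54 (1.52 ± 0.36), Nepro (1.43 ± 0.28), Rrs1 (0.80 ± 0.20) and Tma16 (1.23 ± 0.31, or -0.021 with the mean of its probe sets). The luminal median of the list was 0.33. On the basal arrays alone Rrp15 was the single call, and with each array centred 30 of the 108 rose, against 3 without the intensity trend. The count was 4 without the replicate 3 pair. With 1 array omitted the count was 2 without castrated basal replicate 2, 4 to 7 without each of castrated basal replicates 1 and 3, intact basal replicates 2 and 3 and the castrated luminal arrays, and 20 without intact luminal replicate 3. Dcaf13 was called in all 12 of these fits. Nol12, Ddx54 and Tma16 have other probe sets of opposite sign. With the mean of probe sets, the calls of Bms1, Krr1, Mphosph10, Pes1, Ddx54 and Nol12 were lost. Of 25 structural proteins of the cytosolic ribosome limma called 0 (3 at an unadjusted p under 0.05), at a median of -0.00, Rps24 being closest (-0.39 ± 0.15, adjusted p = 0.179).

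Sterol synthesis moved the other way. Cells make cholesterol from acetyl-CoA through mevalonate and squalene, and the factor SREBP2 raises the genes of the pathway when sterol is low, with NF-Y bound nearby. The NF-Y box CCAAT was searched on both strands in the same RefSeq windows, where 37.4% of all held it. It was present in all 5 sterol genes that fell and had a window and in 12 of 13 that did not pass. The sterol regulatory element of the LDL receptor promoter, searched in its exact letters, was in 0.0913% of all windows, in 0 of the 5 and in 0 of the 13. Stretches with the box in capitals, as CCAAT or ATTGG, are printed for enzymes whose fall is given below. They lie at chr13:119690270-119690349 (plus strand) for Hmgcs1, chr13:8885526-8885605 (plus) for Idi1 and chr5:4104698-4104777 (minus) for Cyp51, also on GRCm38.p6.
Hmgcs1: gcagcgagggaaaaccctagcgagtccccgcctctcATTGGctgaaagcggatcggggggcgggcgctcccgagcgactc
Idi1: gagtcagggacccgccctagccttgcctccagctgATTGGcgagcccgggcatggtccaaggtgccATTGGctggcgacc
Cyp51: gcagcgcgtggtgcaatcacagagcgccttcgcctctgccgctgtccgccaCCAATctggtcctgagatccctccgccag

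Of 23 sterol synthesis genes and regulators measured, 6 fell, 0 rose and 17 did not pass. The median was -0.86, and 19 lay below 0. Insig1, which holds SREBP in the endoplasmic reticulum and is itself sterol-responsive, read 4104, 4193 and 6349 on intact and 1055, 665 and 888 on castrated arrays (-2.46 ± 0.33, adjusted p = 7.18e-04). Hmgcs1, which makes HMG-CoA, read 11000.0, 14446 and 19250.4 and 5105, 5493 and 4534 (-1.53 ± 0.24, adjusted p = 0.0028). Idi1, the isopentenyl diphosphate isomerase, read 3276, 4442 and 3112 and 788, 1328 and 550.3 (-2.08 ± 0.39, adjusted p = 0.0111). None of these overlapped between groups. Cyp51, which demethylates lanosterol, read 4396, 3731 and 4922 and 749, 1767 and 1695 (-1.71 ± 0.32, adjusted p = 0.0111). Sqle, squalene epoxidase, read 2136, 1522 and 1639 and 577, 664 and 338 (-1.75 ± 0.40, adjusted p = 0.0303). Srebf2, which encodes SREBP2, read 2236, 1549.7 and 2007 and 642, 938 and 157 (-2.01 ± 0.52, adjusted p = 0.0496), with castrated replicate 3 the lowest. Fdps, of farnesyl diphosphate synthesis, and the sterol carrier Stard4 had changes as large as the called genes but did not pass (Fdps -2.34 ± 0.67, adjusted p = 0.0697, and Stard4 -2.19 ± 0.67, adjusted p = 0.0921). Insig1 was called in all 27 alternatives, and Hmgcs1, Idi1 and Cyp51 in all 12 fits that omitted 1 array, against 7 for Sqle and 2 for Srebf2. On the basal arrays alone 3 of the list fell (not Cyp51, Sqle or Srebf2), as did 3 without the replicate 3 pair, 4 with each array centred and 1, Insig1, without the intensity trend.

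In luminal cells no sterol gene named here fell. The median of the 23 genes there was 0.58, and Hmgcs1 (0.90 ± 0.24), Cyp51 (1.30 ± 0.32) and Sqle (1.57 ± 0.40) rose (adjusted p = 0.0327, 0.023 and 0.0266). The basal minus luminal difference passed for Hmgcs1 (adjusted p = 0.00269), Cyp51 (0.00374), Insig1 (0.00732), Sqle (0.00742) and Idi1 (0.0254), and not for Srebf2 (0.0742). Fatty acid synthesis and desaturation, which SREBP1 controls, gave limma 0 calls of 25 genes in basal cells (4 at an unadjusted p under 0.05), at a median of -0.01. Its closest member was Scd2, a stearoyl-CoA desaturase (-0.87 ± 0.23, adjusted p = 0.0531). Of 21 genes of lipid uptake, storage and efflux, 1 fell, the fatty acid binding protein Fabp4 (-4.13 ± 0.95, adjusted p = 0.0311), which fat and endothelial cells also express. Fabp4 was not called in 4 of the fits that omitted 1 array, on the basal arrays alone or without the replicate 3 pair.

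**Figure D4:**
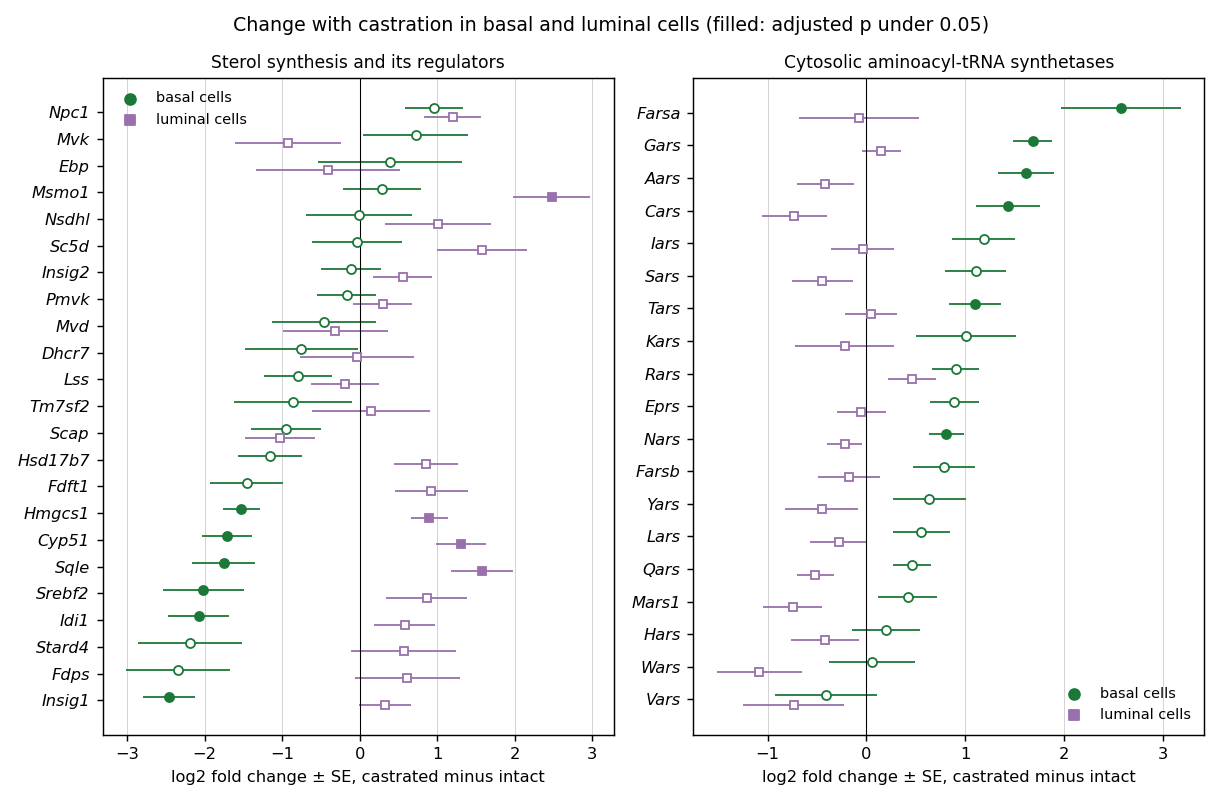
Log2 fold change ± standard error with castration in basal (circles) and luminal (squares) cells for the 23 sterol genes (left) and the 19 cytosolic aminoacyl-tRNA synthetases (right), with filled symbols for adjusted p under 0.05. In the left panel the 6 filled basal circles lie between -2.46 (Insig1) and -1.53 (Hmgcs1) with their luminal squares above 0, and in the right panel 18 of 19 basal circles lie above 0.

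Some matrix genes fell in castrated basal cells. Of 34 collagens and matrix enzymes, 8 fell, 1 rose and 25 did not pass, at a median of -0.94. Of 16 fibroblast genes, 6 fell, 0 rose and 10 did not pass (median -2.43). Col1a2, a chain of type I collagen, read 2559, 1294 and 4753 on intact and 78.5, 255 and 52.3 on castrated arrays (-4.39 ± 0.60, adjusted p = 7.18e-04). Sparc, a collagen-binding matrix protein, read 16614, 12407 and 15355 and 1538, 390.0 and 1396 (-3.93 ± 0.54, adjusted p = 8.85e-04). Col15a1, a basement membrane collagen, read 606, 1464 and 1684 and 37.9, 49.2 and 62.2 (-4.16 ± 0.60, adjusted p = 0.00123). The groups were apart for all 3. Serpinf1, the anti-angiogenic factor PEDF (-4.26 ± 0.60, adjusted p = 0.00108), and Dpt, dermatopontin (-3.96 ± 0.75, adjusted p = 0.0112), fell too. Smaller falls were those of Col7a1, the anchoring fibril collagen (-2.35 ± 0.46), Col16a1 (-2.33 ± 0.55), Col3a1 (-2.77 ± 0.68) and Gsn, the actin-severing gelsolin (-1.18 ± 0.22). Col1a1 fell too, with -3.03 ± 0.75 on its brightest probe set. Another Col1a1 probe set gave -5.97 and passed (limma on every probe set singly, adjusted p = 1.69e-05). Plat, tissue plasminogen activator (-2.04 ± 0.50), and the matrix protease Adamts1 (-1.16 ± 0.29) also fell. The fibroblast-enriched genes Pdgfra (-2.01 ± 0.61, adjusted p = 0.0845) and Lum (-1.88 ± 0.58, adjusted p = 0.0902) did not pass, and Dcn had 0.06 ± 0.25 at the signals given above. In luminal cells the fibroblast list had a median of -2.15, with Col1a2 at -4.40 ± 0.60. The part of contaminating fibroblasts in these falls was not tested. Col1a2, Sparc, Col15a1 and Serpinf1 were called in all 27 alternatives. Without the replicate 3 pair 3 collagen and enzyme genes and 4 fibroblast genes fell, on the basal arrays alone 5 and 4, and without the intensity trend 4 and 3. Of the 34 collagens and enzymes, 3 fell without any 1 intact basal array or castrated luminal replicate 1. The count was 4 without castrated basal replicate 1 or 2 or castrated luminal replicate 2, and 5 without castrated basal or castrated luminal replicate 3. With each array centred, Col16a1, Col3a1, Gsn, Plat and Adamts1 did not pass.

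Thbs1, thrombospondin 1, an activator of latent TGF-beta, was the matrix gene that rose, from 9100.4, 10867 and 10581 to 23893, 23086 and 32877 (1.37 ± 0.19, adjusted p = 7.18e-04). Its luminal rise was larger (3.08 ± 0.19, adjusted p of the difference 0.0039). In the TGF-beta and activin list Thbs1, Fst and Pmepa1 rose, 1 of the 30 genes fell and 26 did not pass (median 0.44). Thbs1 was the 1 of these that passed without the replicate 3 pair. The fall was in the ligand Tgfb3, from 815, 668 and 638 to 77.6, 265 and 2.61 (-3.19 ± 0.76, adjusted p = 0.0353) and was not called in 8 of the fits that omitted 1 array. The ligands Tgfb1 (0.80 ± 0.55) and Tgfb2 (0.82 ± 0.67), the receptors Tgfbr1 (0.11 ± 0.29) and Tgfbr2 (0.12 ± 0.41), the effector Smad3 (0.93 ± 0.39) and the inhibitor Smad7 (1.11 ± 0.38) did not pass. Among 36 growth factor ligands, 1 rose and 2 fell. Igf1, insulin-like growth factor 1, which stroma supplies in the prostate, read 755, 1098 and 700.2 on intact and 116, 55.6 and 4.75 on castrated basal arrays (-3.87 ± 0.74, adjusted p = 0.0127). Artn, artemin, a ligand of the GDNF family, read 150.0, 109.7 and 63.01 and 562, 716 and 1275 (2.79 ± 0.67, adjusted p = 0.036). Neither overlapped. Artn was not called in 9 of the fits that omitted 1 array, and Tgfb3 was the other ligand that fell. Without the replicate 3 pair Igf1, Artn and Tgfb3 did not pass. Among 44 Wnt genes 2 fell, the secreted inhibitor Wif1 (-2.71 ± 0.58, adjusted p = 0.0236) and the transcription factor Tcf7l2 (-1.06 ± 0.27, adjusted p = 0.0465). Neither passed on the basal arrays alone or without the replicate 3 pair, and Tcf7l2 has other probe sets of opposite sign. In 3 other signalling lists, limma called 0 of 27 Notch, 0 of 13 Hedgehog and 0 of 21 BMP and ID genes (7, 2 and 4 at an unadjusted p under 0.05), their closest members being Adam10 (0.84 ± 0.29, adjusted p = 0.13), Ptch1 (-1.45 ± 0.43, adjusted p = 0.0803) and Id4 (-0.61 ± 0.17, adjusted p = 0.0674).

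Some genes of antigen presentation and myeloid cells rose. Of 15 class II presentation genes 3 rose, 0 fell and 12 did not pass (median 0.04). Ctss, cathepsin S, which trims the class II invariant chain and is also made by macrophages, read 132, 104 and 39.0 on intact and 786, 1196 and 1303 on castrated arrays (3.45 ± 0.53, adjusted p = 0.00237). H2-Aa, a class II chain, read 113, 69.9 and 20.3 and 358, 1383 and 859 (3.38 ± 0.81, adjusted p = 0.0358), and H2-Eb1 read 210.3, 23.6 and 15.03 and 401, 562 and 514 (2.95 ± 0.73, adjusted p = 0.0405). On all 3 genes the groups were apart. Cd74, the invariant chain, had 3.03 ± 0.85, adjusted p = 0.0667 and did not pass. Of 22 myeloid genes, 2 rose (Ctss and the lysozyme Lyz2, 2.40 ± 0.59, adjusted p = 0.0398) and 20 did not pass. The median change of the 22 was 0.53, with 15 above 0. The myeloid marker Tyrobp read 144, 69.8 and 5.16 on intact and 659.6, 617 and 169.9 on castrated arrays, while Ptprc, the leukocyte surface protein CD45, was at 89.1 or less on all 6. The summed ranges of the 8 leukocyte markers overlapped, as given above. The part of leukocytes in the rises was not tested. None of H2-Aa, H2-Eb1 and Lyz2 passed on the basal arrays alone, while Ctss was called in all 27 alternatives. Without the replicate 3 pair 1 class II gene rose, and 1 without castrated basal replicate 2 or 3, any 1 castrated luminal array or intact basal replicate 2. Of 16 class I genes limma called 0 (5 at an unadjusted p under 0.05), Psmb9 being closest (-2.67 ± 0.77, adjusted p = 0.0718). Of 41 chemokines and cytokines, Ccl2, which attracts monocytes, fell from 393, 471 and 405 to 74.0, 13.0 and 5.50 (-3.52 ± 0.73, adjusted p = 0.0189), and Cx3cl1, a membrane-bound chemokine, rose (1.90 ± 0.49, adjusted p = 0.0469). Neither passed without the replicate 3 pair, and Cx3cl1 did not pass on the basal arrays alone.

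Most basal identity genes did not pass the test. Of 18 p63 and basal keratin genes 17 did not pass and 1 rose (median 0.27). Trp63, the basal master regulator p63, read 7017, 8969 and 9052 on intact and 9737, 7836 and 12963 on castrated arrays (0.26 ± 0.43). Krt5 read 15237, 23812 and 25733 and 23682, 23582 and 31827 (0.31 ± 0.68), and Krt14 read 20424, 24810.1 and 29587 and 25650.3, 30376 and 32813 (0.26 ± 0.48). All 3 overlapped between the groups and did not pass. Their errors also draw on luminal arrays, where Krt5 read 39.3, 5.89 and 62.7 after castration. Failing to pass therefore does not show a stable level in basal cells. On 7 of the 18 the groups did not overlap, against 19.8% of all genes. Among the 10 basal markers, Krt15, Krt17 (0.79 ± 0.42), Itgb4 (0.79 ± 0.52) and Col17a1 (1.33 ± 0.58) were higher without overlap. None of these passed, and no marker was lower without overlap. The 1 call among the 18 was Aqp3, a water and glycerol channel, which rose from 5455, 9325 and 1962 to 23736, 22961 and 36909 (2.55 ± 0.56, adjusted p = 0.0266). Its call was lost in 4 of the fits that omitted 1 array and without the replicate 3 pair. Of its other probe sets, those at 3.71 and 2.43 passed when tested singly, and that of opposite sign, at -0.24, did not. Krt6a, a keratin of stressed and wounded epithelium, had 2.54 ± 0.88, adjusted p = 0.135 and did not pass. The proliferation marker Mki67 read 314, 141 and 68.3 and 184, 197 and 2.41 (-0.83 ± 0.78), overlapping. Of 42 cell cycle genes 1 fell, Rrm2, a ribonucleotide reductase subunit, from 5716, 5582 and 5176 to 1461, 2310.1 and 1224 (-1.76 ± 0.35, adjusted p = 0.0152), a call lost without the replicate 3 pair.

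Luminal and squamous genes gave some rises. Of 21 luminal identity genes, 2 rose and 1, Hoxb13, fell. Krt19, a keratin of simple epithelia, read 6514, 6900.5 and 4435 on intact and 12779, 13881 and 13315 on castrated arrays (1.19 ± 0.18, adjusted p = 0.0022). Epcam, the surface protein used in the sort, read 14114, 13122 and 13667 and 20788, 21288 and 26161 (0.73 ± 0.14, adjusted p = 0.0127). Both rose without overlap, and Epcam did not pass on the basal arrays alone. Without the replicate 3 pair, 1 of the 21 rose and 1 fell. Krt8 had 0.34 ± 0.17 and Krt18 0.39 ± 0.16, and neither passed. Of 18 genes of proximal and castration-resistant luminal cells 4 rose and 14 did not pass (median 0.75). Besides Clu these were Krt4, a mucosal keratin, Gsdmc2, a gasdermin, and Cyp2f2, a cytochrome P450. Krt4 read 165, 876 and 50.4 on intact and 2742, 1999 and 796 on castrated arrays (2.91 ± 0.66, adjusted p = 0.0306), and Gsdmc2 read 24.8, 38.4 and 4.16 and 1680.4, 943 and 33.2 (3.60 ± 0.89, adjusted p = 0.039). Both overlapped, with castrated replicate 3 the lowest castrated array. Cyp2f2 went from 1597, 2337 and 1219 to 6288, 5335 and 3793 (1.59 ± 0.41, adjusted p = 0.0465) without overlap. Of the 18, 3 rose without the replicate 3 pair, 2 on the basal arrays alone and 1 without the intensity trend. With 1 array omitted the count was 1 without castrated basal replicate 1 or 2, intact basal replicate 3 or castrated luminal replicate 1, and 2 without intact basal replicate 2, castrated luminal replicate 2 or 3 or intact luminal replicate 2. It was 5 without castrated basal replicate 3 and 6 without intact luminal replicate 3. Of 20 cornified envelope genes 2 rose. Ivl, involucrin, read 1643, 1562 and 433 and 5498, 5669.7 and 4906 (2.35 ± 0.55, adjusted p = 0.0334), and Lor, loricrin, read 131, 475 and 204 and 1433, 1014 and 1895 (2.49 ± 0.63, adjusted p = 0.0428). Neither overlapped, and neither passed without the replicate 3 pair. Other Lor probe sets gave 0.19 and 0.39 and did not pass (limma on every probe set singly, adjusted p = 0.92 and 0.84). With the mean of its probe sets the Lor call was lost. At tight junctions, 2 of 25 genes rose, the polarity protein Pard6b (1.15 ± 0.26) and Cldn12, a claudin (1.04 ± 0.24). Neither passed on the basal arrays alone or without the replicate 3 pair.

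Several other lists gave 1 to 3 calls each. Among 35 actin genes Pfn2 rose, and Gsn and Tmsb4x, the actin-binding thymosin beta 4, fell. Tmsb4x read 41588, 50368 and 37337 on intact and 21408, 22913 and 33268 on castrated arrays (-0.75 ± 0.18, adjusted p = 0.0386), and did not pass with each array centred. Among 21 contractile and myoepithelial genes Mrtfa rose and Myl9, a myosin light chain, fell from 2072, 1839 and 1956 to 238, 354 and 292 (-2.68 ± 0.58, adjusted p = 0.0241). Of 12 smooth muscle genes limma called 0 (2 at an unadjusted p under 0.05). Slc39a4, a zinc importer, was the call among 18 zinc genes, and rose from 152, 100.4 and 123 to 519.6, 561 and 1239 (2.39 ± 0.41, adjusted p = 0.00583). Among 30 lysosomal genes Ctss rose and Grn, progranulin, fell (-1.85 ± 0.42, adjusted p = 0.0285), with overlapping groups. Among 14 complement genes Cd55 and Clu rose. Serping1, the C1 inhibitor, fell from 1420.0, 1416 and 1343 to 235, 243 and 179 (-2.60 ± 0.64, adjusted p = 0.0389), without overlap. Of 8 IGF-binding genes Htra1, a protease that cleaves them, fell from 1995, 2375 and 2982 to 822, 402 and 256 (-2.41 ± 0.57, adjusted p = 0.0346), against 2.58 ± 0.57 in luminal cells (adjusted p of the difference 0.00521). Of 27 immediate early genes Socs3 rose, going from 1049, 2174 and 1119 to 3808, 3821 and 4399 (1.54 ± 0.37, adjusted p = 0.0352). Tnfrsf1a, a receptor of tumour necrosis factor, was the call among 26 apoptosis regulators (1.51 ± 0.36, adjusted p = 0.0365), and Oasl1, of the interferon response, among 25 interferon genes (-2.55 ± 0.62, adjusted p = 0.0381). All 3 castrated arrays were dim for Oasl1, at 1.45, 0.864 and 1.41. Mrtfa, Myl9, Grn, Cd55, Serping1, Htra1, Socs3, Tnfrsf1a and Oasl1 did not pass without the replicate 3 pair.

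**Figure D5:**
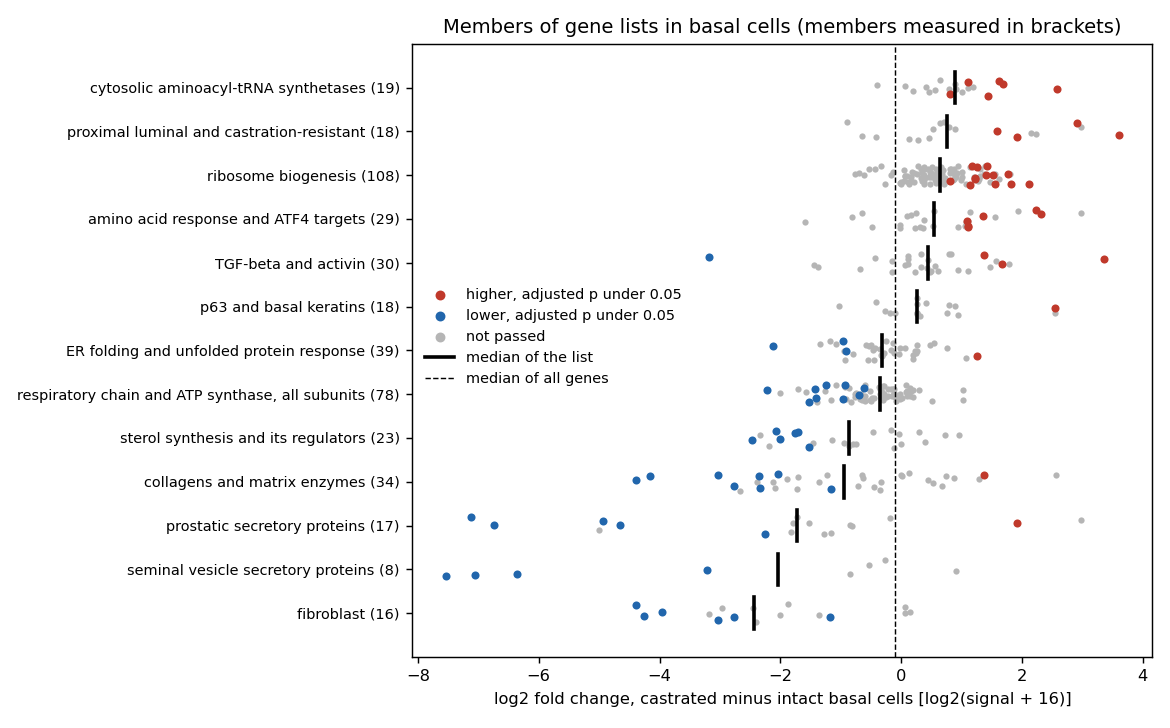
Log2 fold change in basal cells for every measured member of 13 gene lists, with red for genes that rose, blue for genes that fell, grey for genes that did not pass, a black bar at each list's median and a dashed line at the median of all genes (-0.11). Fibroblast and secretory lists lie lowest and the synthetase list highest (0.89). A gene in several lists is drawn in each.

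The basal and luminal responses shared part of their genes. Castration changed 858 genes in luminal cells (5.86%), and 117 were called in both, which is 30.5% of the basal and 13.6% of the luminal calls. Of these 117, 99 moved in the same direction. The test of the difference between the responses called 168 genes (1.15%), of which 49 were among the basal calls, 20 higher and 29 lower. For 41 of the 49 the luminal estimate had the opposite sign, counted whether or not it passed. Some of these estimates were near 0, as for Clu (-0.18) and Prr9 (-0.12). Picking genes by a large difference also favours opposite signs. Herpud1, an endoplasmic reticulum stress protein, read 904, 961 and 973 on intact and 2321, 2408 and 2089 on castrated basal arrays (1.25 ± 0.24, adjusted p = 0.013) and had -1.24 ± 0.24 in luminal cells (adjusted p of the difference 0.00269). Tnfaip2, a cytokine-induced protein, read 357, 466 and 266 and 123, 8.07 and 17.9 (-2.93 ± 0.60, adjusted p = 0.0167) and had 3.38 ± 0.60 in luminal cells (0.00235). Both passed in opposite directions in the pair of cell types. Plscr1, a phospholipid scramblase (-1.33 ± 0.26 in basal and 1.35 ± 0.26 in luminal cells), and Sec14l2, a lipid-binding protein (-2.22 ± 0.52 and 2.61 ± 0.52), fell in basal and rose in luminal cells. Gstm1, a glutathione transferase (0.69 ± 0.16 and -0.87 ± 0.16), Plagl1, a zinc finger factor (1.04 ± 0.20 and -0.86 ± 0.20), and Socs3, a feedback inhibitor of cytokine signalling (1.54 ± 0.37 and -1.46 ± 0.37), rose in basal and fell in luminal cells. Gstm1 and Plagl1 have other probe sets of opposite sign. Other Tnfaip2 probe sets gave -0.48 and -0.53 in basal cells and did not pass (limma on every probe set singly, adjusted p = 0.77 and 0.71). Tnfaip2 was not called without castrated basal replicate 2 or without intact basal replicate 2, nor Plscr1 without intact basal replicate 3. Gstm1 was not called in 6 of the 12 fits that omitted 1 array, and Sec14l2 and Socs3 in 7. The count of 168 was 65 without castrated luminal replicate 3, 83 without castrated luminal replicate 1, 92 without castrated luminal replicate 2 and 104 without intact basal replicate 2.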

How the data were processed

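RNA of sorted cells was isolated with a column kit for small samples (RNeasy Micro), amplified with the NuGEN Pico kit and hybridized to Affymetrix arrays after biotin labelling, per the labels' protocols. The authors deposited signal intensity per probe set, made with MAS5 per the submitters' processing notes (version not given in the sources used here). Of 45101 probe sets, 64 were controls, 34945 had 1 gene symbol, 932 several and 9160 none in the annotation table given. Entrez identifiers of 34741 matched RefSeq (GRCm38.p6). Values were taken as log2(signal + 16). A probe set was kept where 3 or more of the 12 arrays put it above their own 40th percentile ("dim" means below it), and that with the highest mean stood for its gene.

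Means of the 4 groups were fitted with limma 3.58.1 in R 4.3.3, with an intensity trend. Residual degrees of freedom were 8, and calls were made at a Benjamini-Hochberg adjusted p under 0.05. Replicates came from 3 separate sets of mice, castrated and paired intact, per the labels, which say neither that a number marks a set nor how many mice a set held. Castrated and intact basal arrays of equal number correlated at -0.00504, 0.00584 and 0.0258 after removal of group means. The number entered as a block in an alternative only. The others were quantile normalization, median centring, 1 or 64 added, no or a stricter filter, other probe set handling, basal arrays alone, no trend, array weights, a random block, leaving out each array in turn, and leaving out the basal pair of replicate 3. The fit was also run on simulated data that took their means and spreads from these arrays. Python 3.11.15 wrote the tables (numpy 2.4.6, pandas 2.3.3) and the plots (matplotlib 3.10.9).

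Gene lists, members and tests were chosen with earlier results of these data known. Lists of synthetases, ribosome assembly and the whole respiratory chain, the TGATGNAA motif and 9530002B09Rik were chosen after values were seen. Lists were described by counts and medians without a test. Named were the 15 largest rises and falls among calls without overlap, the 10 lowest adjusted p-values, up to 6 called members per list (or the closest), the 5 strongest differences from luminal cells per direction, and always 4 keratins, p63, Pbsn and Mki67, provisional symbols being skipped. Further members of lists given in full were named beyond that rule.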

Additional observations from a re-analysis of the deposited data

Results flagged for a closer look

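Groups of 3 arrays were too small for a test of single outlying arrays. Among the genes that were named by rule and called in basal cells, 29 had a basal change that differed from the luminal change by limma's interaction test, and the values here are basal minus luminal differences in log2 fold change. The difference was positive, so the basal change was the higher, for Pate14 (4.72), Nradd (4.61), Fst (3.80), Socs3 (2.99), Pfn2 (2.98), Tgm4 (2.56), Herpud1 (2.48), Cars (2.16), Clu (2.10), Aars (2.03), Plagl1 (1.90), Prr9 (1.79), Gstm1 (1.56), Gars (1.53) and Sgk1 (1.30). It was negative for Tnfaip2 (-6.32), Htra1 (-5.00), Sec14l2 (-4.83), Svs2 (-4.22), Pbsn (-3.55), Sqle (-3.33), Plat (-3.29), Cyp51 (-3.01), Insig1 (-2.79), Plscr1 (-2.67), Idi1 (-2.66), Hmgcs1 (-2.43), Ccn1 (-1.99) and Thbs1 (-1.71). Pate14 and Tgm4 fell in both cell types and less in basal cells, Pbsn and Svs2 fell in both and more in basal cells, and Thbs1 rose in both and less in basal cells. Of genes not called in basal cells for which values are given above, Svs6 (6.87), Svs3a (5.52), Dcn (2.82), Ddit3 (2.40), Mt1 (2.31) and Mt2 (2.22) also differed by this test, each with a positive difference.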

How the results depend on the processing

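The 384 calls (164 higher, 220 lower) became 626 (511 and 115) with median centring, where 81.6% were higher against 42.7%, 155 (42 and 113) without the intensity trend, 202 (78 and 124) with array weights and 120 (44 and 76) on basal arrays alone. Leaving out 1 array gave 175 to 623 calls, 55 to 283 higher and 117 to 340 lower, the highest without intact luminal replicate 3; leaving out both basal arrays of replicate 3 gave 162 (58 and 104, with 166 interaction calls). The 168 interaction calls became 27 without the trend and 65 to 163 with 1 array left out; fits on basal arrays alone cannot give an interaction. With the replicate number as a block, 318 genes were called (137 and 181), 296 of them among the 384, and 97 (33 and 64) on basal arrays alone. All other settings stayed within 1.5 times for these counts. The causes of these moves were not tested. Of the 139 named calls none changed sign in the 27 alternatives except Farsa (-0.22) and Tma16 (-0.021) with the mean of probe sets; 28 were called in all 27 and 58 in all 12 leave-outs, and 83 were lost without the trend, 83 without both basal arrays of replicate 3, 73 on basal arrays alone, 54 with array weights, 32 with the mean of probe sets, 30 with 1 added, 19 under the block, which are named above, 25 with centring and 19 with quantile normalization. Other probe sets of opposite sign exist for 14 of the 75 named calls with more than 1. Of the calls, 27 lower genes were dim on all castrated and 3 higher genes dim on all intact arrays, so their size is uncertain.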

Other observations

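Some subunits of the mitochondrial respiratory chain and ATP synthase fell in castrated basal cells. Of 78 subunits measured, a list chosen by symbol after the values were seen, 9 fell, 0 rose and 69 did not pass, with a median of -0.34 and 63 below 0. Ndufa1, of complex I, read 10282, 8539 and 11089 on intact and 4093, 4106 and 3049 on castrated arrays (-1.41 ± 0.19, adjusted p = 7.18e-04, limma). Atp5md, of ATP synthase, read 10126, 11093 and 8532 and 3053, 4955 and 2587 (-1.53 ± 0.23, adjusted p = 0.00187). Neither overlapped, and both were called in all 27 alternatives. Ndufv3 fell by 2.22 and Ndufa13 by 1.24. Ndufa3, Ndufb7, Atp5k, Cox6b1 and Cox6c completed the 9. With each array centred on its median, the list's median was -0.00 and 3 subunits fell, and on the basal arrays alone 3 fell. Without both basal arrays of replicate 3 there were 3, and without the intensity trend 3. With 1 array omitted, 4 fell without castrated or intact basal replicate 2, and 5 without castrated basal replicate 1, intact basal replicate 3, intact luminal replicate 1 or any castrated luminal array. Atp5k and Ndufa3 have other probe sets of opposite sign.

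Antioxidant, retinoid and folding genes gave smaller sets. Of 35 glutathione and oxidative stress genes, Gpx3, a secreted glutathione peroxidase, fell from 2428, 2691 and 2313 to 67.5, 260.2 and 124 (-4.07 ± 0.73, adjusted p = 0.00741). Gpx1, the cytosolic peroxidase, went from 17994, 19844 and 20545 to 9852, 8577 and 10666 (-1.01 ± 0.18, adjusted p = 0.00941), and Gsta3 fell by 1.88, while Gstm1 rose by 0.69. Gpx1 lost its call with each array centred and Gsta3 in 5 of the 12 fits that omitted 1 array. Of 19 retinoid genes 3 fell. Besides Aldh1a1 these were Rarres2, the adipokine chemerin (-3.82 ± 0.67, adjusted p = 0.00672), and the alcohol dehydrogenase Adh1 (-1.53 ± 0.28, adjusted p = 0.00793). Rarres2 has another probe set at 0.73. Of 39 folding and unfolded protein response genes, Herpud1 rose and Hsp90b1 (-0.92 ± 0.15), Dnajc3 (-0.96 ± 0.23) and Derl3 (-2.12 ± 0.54) fell, the list's median of -0.32 turning to 0.02 with each array centred. Those 3 falls were lost with centring, and Dnajc3 has another probe set of opposite sign. Of 28 glycolysis and hypoxia genes, Hif1a, the oxygen-regulated factor (1.08 ± 0.25, adjusted p = 0.03), and Hk2, hexokinase 2 (1.08 ± 0.27, adjusted p = 0.0389), rose and Tpi1, triose phosphate isomerase, fell (-0.90 ± 0.23, adjusted p = 0.0469), and none of these 3 passed on the basal arrays alone. Without both basal arrays of replicate 3, Gpx1, Aldh1a1, Rarres2, Herpud1 and Hsp90b1 were called, and Gpx3, Gsta3, Gstm1, Adh1, Dnajc3, Derl3, Hif1a, Hk2 and Tpi1 were not.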
